A study of Homo sapiens with 6 samples.

Results

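The genes described here are 32 human genes of the G1/S transition and DNA replication, taken by symbol from the 60612 genes of the deposited table. They were grouped by role into 9 licensing genes, 14 fork genes, 4 nucleotide supply genes and 5 E2F and G1/S genes. RNA was sequenced from 6 libraries of HSC-3 cells, a long-established line grown from a human squamous carcinoma of the mouth. Of these, 3 libraries came from cells labelled as overexpressing IRF9, the DNA-binding subunit of the interferon-activated factor ISGF3, and 3 from control cells. The controls carry no genotype label, and the design text calls the comparison cells wild type. The sources used here do not give whether they held an empty vector, which promoter drove IRF9, or whether the overexpressing cells were 1 clone. Separate cultures are not stated for the replicates of a group. The p-values therefore reflect only how far these libraries differ, possibly for technical reasons.

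Before a cell copies its DNA, the origin recognition complex, CDC6 and CDT1 load MCM2 to MCM7 as a hexamer on each origin. This step is called licensing. In S phase CDC45 and the GINS complex join the hexamer to form the replicative helicase, and polymerases, the RFC clamp loader and the PCNA clamp copy the strands. Ribonucleotide reductase, thymidylate synthase and thymidine kinase supply the deoxynucleotides. Many of these genes are transcribed under E2F factors, which the retinoblastoma protein RB1 restrains until cyclin-dependent kinases act, among them CDK2 with cyclin E. In a bulk sample, fewer cells in S phase and less RNA of these genes per cell cannot be told apart.

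IRF9 was checked first. Its level was 435, 423 and 120 CPM (counts scaled to library size) in the overexpressing libraries and 27.6, 25.1 and 44.6 CPM in the controls. All overexpressing libraries lay above all controls, with a log2 fold change of 3.35 (standard error, SE, 0.41; adjusted p 4.74e-05). AL136295.5, which overlaps IRF9 on the same strand, had 111.5, 115.7 and 421.4 CPM in the overexpressing libraries, highest where IRF9 was lowest. With both genes summed the level was 542.1 ± 4.02 against 119.6 ± 2.90 CPM (mean ± SD, n = 3), a 4.53-fold difference. Libraries held 61645349 to 85156099 counts. The 8 epithelial markers examined were all detected, and together made 12275 to 13036 CPM in overexpressing libraries and 20757 to 21503 CPM in controls. Lists of 8 fibroblast, 8 leukocyte and 8 endothelial markers summed to at most 80.5, 39.4 and 16.3 CPM in any library.

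Most licensing genes and 7 of 14 fork genes were higher in the IRF9-overexpressing cells, while 3 of 4 nucleotide supply genes were lower. Of the 32 genes, all tested, 16 rose, 4 fell and 12 did not pass (quasi-likelihood test of edgeR, threshold on the adjusted p 0.05). Of all 19034 genes tested, 37.4% passed, 19.2% as higher and 18.2% as lower. The rise was found for 7 of 9 licensing genes and 7 of 14 fork genes, and no member of either group fell. Among nucleotide supply genes 3 of 4 fell and none rose, and among E2F and G1/S genes 2 rose and 1 fell. The median log2 fold change was 0.25 for licensing, 0.24 for fork, -0.24 for nucleotide supply and -0.07 for E2F and G1/S genes, against 0.005 for all genes. The CPM ranges of the groups did not overlap for 22 of the 32 genes, where 48.6% of all genes showed no overlap. Changes were moderate: the highest was 0.71, for CDT1, and the lowest -0.45, for CCNE2.

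**Figure D1:**
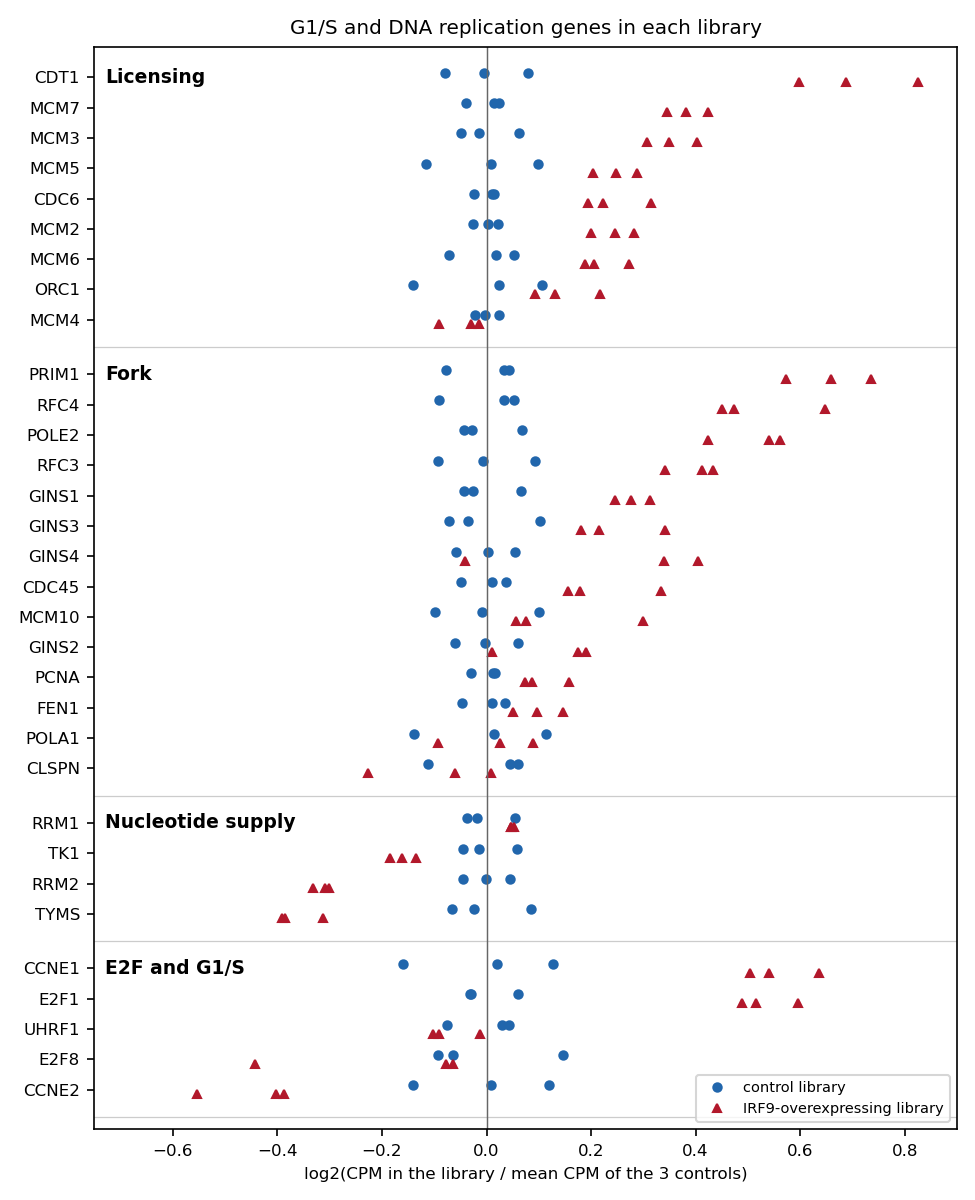
Each point is 1 library, plotted as the log2 ratio of its CPM to the mean of the 3 controls, for the 32 genes ordered by fold change within each role. Overexpressing libraries (triangles) lie to the right of the controls (circles) for CDT1, PRIM1 and RFC4, and to the left for RRM2, TYMS and CCNE2.

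Among licensing genes, CDT1, which brings the MCM hexamer to origins, had the highest fold change. CDT1 (ENSG00000167513, chromosome 16, 88803789 to 88809258, plus strand) had 45.1, 38.6 and 41.0 CPM in overexpressing libraries and 26.9, 25.4 and 24.1 CPM in controls. The lowest overexpressing library was well above the highest control. Its log2 fold change was 0.71 (SE 0.07, adjusted p 9.73e-06), a rise of 63.2%. CDC6, the ATPase that acts with CDT1 in loading, had 46.8, 47.7 and 50.8 CPM against 40.2, 41.3 and 41.2 CPM. It rose by 0.25 (SE 0.05, adjusted p 0.00277), again without overlap. ORC1, the largest subunit of the origin recognition complex, had 14.6 ± 1.25 CPM in controls and a log2 fold change of 0.14 with a 95% interval of -0.04 to 0.32 (adjusted p 0.218).

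Of the 6 hexamer subunits, 5 rose. MCM7 (ENSG00000166508, chromosome 7, 100092728 to 100101940, minus strand) had 202.5, 191.8 and 196.8 CPM against 153.6, 152.4 and 147 CPM, a log2 fold change of 0.38 (SE 0.04, adjusted p 9.68e-06). MCM3 had 112.9, 109.7 and 117.2 CPM against 87.7, 92.5 and 85.6 CPM, a change of 0.35 (SE 0.05). In both genes each overexpressing library exceeded each control. MCM5, MCM2 and MCM6 rose by 0.25, 0.24 and 0.22 on the log2 scale, each with adjusted p-values of at most 0.00365. MCM4 (ENSG00000104738, chromosome 8, 47960185 to 47978160, plus strand) had 168.1, 175.4 and 177.2 CPM in overexpressing libraries and 182.1, 178.6 and 176.4 CPM in controls. Its groups overlapped, and the log2 fold change was -0.05 with a 95% interval of -0.13 to 0.04 (adjusted p 0.382). The ratio of MCM7 to MCM4 counts within a library was 1.14 in overexpressing cells and 0.843 in controls. The log2 ratio differed by 0.43 (95% interval 0.31 to 0.55) and did not overlap between groups. Its exact two-sided permutation p was 0.1, the smallest that 3 against 3 libraries can give (0.15 adjusted over 12 pairs). By contrast, the log2 ratio of MCM2 to MCM6 differed by 0.02 (95% interval -0.16 to 0.20) and that of MCM3 to MCM5 by 0.11 (-0.16 to 0.37), and both overlapped.

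Levels in FPKM, which scale fragments by transcript length and library size, placed the hexamer genes among the higher members. In controls MCM7 had 49.7 ± 0.361 FPKM, MCM4 38.2 ± 0.469, MCM3 24.7 ± 0.658, MCM2 21.0 ± 0.0953, MCM5 16.8 ± 1.36 and MCM6 15.4 ± 0.777 FPKM (mean ± SD, n = 3). MCM5 and MCM6 did not differ beyond their spread, judged by whether mean ± SD ranges overlapped, and the other neighbours in this order did. The highest level of the 32 genes was that of PCNA, with 77.4 ± 1.78 FPKM, followed by TK1 with 52.6 ± 2.47 FPKM. The lowest was that of E2F8, with 2.32 ± 0.253 FPKM, whose mean ± SD range overlapped those of GINS4, CLSPN, MCM10 and CCNE2 (means 2.47 to 2.66 FPKM). The median over the 32 genes was 11.1 FPKM in controls, where that of all tested genes was 3.43 FPKM.

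**Figure D2:**
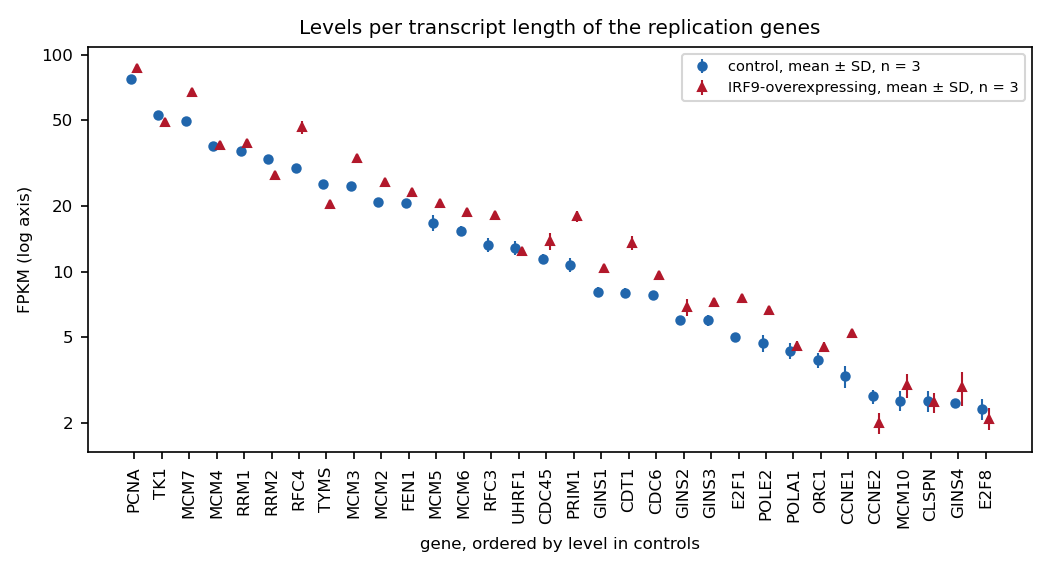
FPKM on a log axis for the 32 genes, ordered by the control level, as mean ± SD of 3 libraries per group. PCNA is highest at 77.4 FPKM in controls and E2F8 lowest at 2.32 FPKM. RFC4, PRIM1 and CDT1 show wide gaps between the groups.

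Promoter sequence is shown because these genes are known E2F targets. RefSeq windows (GRCh38.p14) of 250 bases before to 50 after the annotated start were found for 27 of the 32 genes. The E2F motif was searched on both strands as TTTCCCGC, TTTCGCGC, TTTGGCGC or TTTGCCGC. It was present for 17 of the 27 genes, against 3.99% of all 27305 genes with a window and 2 of 20 G2/M genes. By role it was found for 6 of 7 licensing genes, 8 of 13 fork genes, 1 of 4 nucleotide supply genes and 2 of 3 E2F and G1/S genes. Of the 4 genes that fell, TYMS held it, RRM2 and TK1 did not, and CCNE2 had no window. Genes that rose without it were CCNE1, CDC45, PRIM1 and RFC4, and MCM5 had no window. Whether the motif goes with the direction of change was not tested. The CHR motif of late cell cycle genes (TTTGAA or TTCGAA) was present for 2 of the 27 genes and 16 of 20 G2/M genes, against 19.5% of all. CCAAT, bound by NF-Y, was present for 18 of the 27 genes and 39.7% of all. The interferon-stimulated response element was present for 0 of the 27 genes and 4.38% of all. Such matches describe letters and do not show binding. The following stretches lie upstream of the annotated gene and run 5′ to 3′ on its strand, with E2F motif letters on either strand in capitals. They are from genes that rose (CDT1, MCM3, MCM6, E2F1), did not pass (PCNA) and fell (TYMS, the only lower gene with a match). Their positions are chr16:88803734-88803781 (plus) for CDT1, chr6:52284889-52284936 (minus) for MCM3, chr2:135876502-135876615 (minus) for MCM6, chr20:33686386-33686438 (minus) for E2F1, chr20:5126654-5126701 (minus) for PCNA and chr18:657594-657641 (plus) for TYMS.
CDT1: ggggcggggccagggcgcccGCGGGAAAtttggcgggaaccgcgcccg
MCM3: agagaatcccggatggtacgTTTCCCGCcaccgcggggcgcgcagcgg
MCM6: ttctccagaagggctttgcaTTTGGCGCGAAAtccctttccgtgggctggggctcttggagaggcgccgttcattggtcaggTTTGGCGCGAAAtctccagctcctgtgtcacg
E2F1: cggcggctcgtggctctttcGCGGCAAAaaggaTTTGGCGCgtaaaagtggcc
PCNA: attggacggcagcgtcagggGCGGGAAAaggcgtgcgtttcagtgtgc
TYMS: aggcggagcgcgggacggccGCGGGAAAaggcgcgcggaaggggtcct

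**Figure D3:**
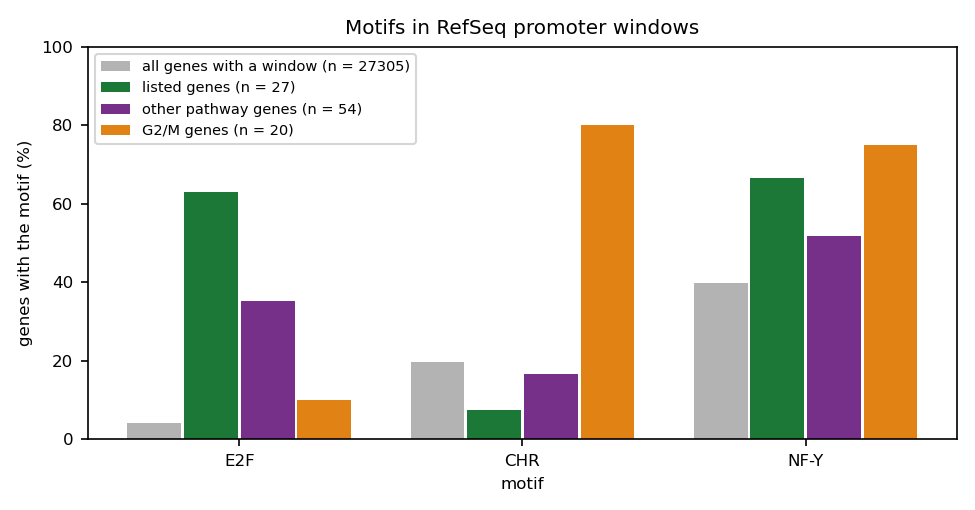
Bars give the percent of genes whose promoter window holds each motif, for all genes with a window, the 27 listed genes, 54 other pathway genes and 20 G2/M genes. The E2F motif is present for 17 of 27 listed genes and 2 of 20 G2/M genes, and the CHR motif for 2 and 16 of them.

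At the fork, PRIM1, RFC4, POLE2, RFC3, GINS1, GINS3 and CDC45 rose. PRIM1, the catalytic primase subunit (ENSG00000198056, chromosome 12, 56731296 to 56752374, minus strand), had 32.5, 30.8 and 29.0 CPM against 20.1, 18.5 and 19.96 CPM. Every overexpressing library was above every control, with a log2 fold change of 0.66 (SE 0.07, adjusted p 1.27e-05). PRIM1 overlaps NACA on the same strand by 333 bases, and NACA, with 417.5 ± 10.3 CPM in controls, rose by 0.17. Summed with NACA the value was 0.20, and how reads were divided between these genes was not tested. POLA1, the polymerase subunit that extends the primer, had 26.5, 28.8 and 30.0 CPM against 25.6, 28.5 and 30.6 CPM. Its groups overlapped, with a log2 fold change of 0.01 (95% interval -0.15 to 0.18). The log2 ratio of PRIM1 to POLA1 differed by 0.65 (95% interval 0.27 to 1.02) without overlap (exact permutation p 0.1).

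RFC4 and RFC3 are subunits of the loader that opens PCNA around DNA. RFC4 had 71.8, 63.7 and 62.6 CPM against 47.6, 43.0 and 46.9 CPM, a log2 fold change of 0.53 (SE 0.06, adjusted p 4.19e-05). RFC3 had 49.7, 46.7 and 49.0 CPM against 34.5, 36.7 and 39.3 CPM, a change of 0.40 (SE 0.06). Both were without overlap, and their ratio did not differ beyond its spread (0.13, 95% interval -0.12 to 0.37). EIF4A2, which overlaps RFC4 by only 18 bases on the opposite strand, had 656.5 ± 3.97 CPM in controls and rose by 0.19. POLE2, an accessory subunit of polymerase epsilon, had 10.9, 11.9 and 12.03 CPM against 8.001, 7.91 and 8.55 CPM, a rise of 0.51 (SE 0.09, adjusted p 0.000973).

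The sliding clamp PCNA had 132.7, 125.2 and 126.3 CPM against 116.6, 120.4 and 119.9 CPM. The groups did not overlap, but the log2 fold change of 0.11 (SE 0.04) did not pass (adjusted p 0.0555). It passed with scaling by library size only (0.17, adjusted p 0.0045), with the replicate number as a block, with upper quartile scaling, with the CPM filter and on FPKM. FEN1, the flap endonuclease of lagging strand processing, had a log2 fold change of 0.10 (adjusted p 0.146), and passed with library size scaling (0.17, adjusted p 0.0194) and on FPKM. CLSPN, the fork protein claspin that mediates checkpoint signals, had -0.09 (95% interval -0.26 to 0.08).

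Of the helicase activators, CDC45, GINS1 and GINS3 rose. GINS1 had 38.7, 37.9 and 39.7 CPM against 31.4, 31.0 and 33.5 CPM, with no overlap and a log2 fold change of 0.28 (SE 0.06, adjusted p 0.00166). GINS3 rose by 0.25 (adjusted p 0.0251), a call lost without overexpressing replicate 3 (0.20) or control replicate 1 (0.22) or 2 (0.24). CDC45 had 30.5, 27.0 and 27.4 CPM against 23.4, 24.4 and 24.9 CPM and rose by 0.23 (adjusted p 0.0182). That call was lost without overexpressing replicate 1 (0.17) or control replicate 1 (0.20) or 2 (0.24). The call for CDC45 was also lost on log2(FPKM + 1) without a filter (0.24). GINS4 had 9.95, 12.9 and 13.5 CPM against 10.2, 9.82 and 10.6 CPM. Overexpressing replicate 1 lay within the controls, and the log2 fold change of 0.24 did not pass (adjusted p 0.131). Without that library it was 0.37 and passed (adjusted p 0.00791). GINS2 had 0.13 (adjusted p 0.197) and MCM10, which helps to activate the helicase, 0.15 (adjusted p 0.256).

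Of the nucleotide supply genes, RRM2, TYMS and TK1 fell. RRM2, the regulatory subunit of ribonucleotide reductase whose level rises in S phase (ENSG00000171848, chromosome 2, 10120698 to 10211725, plus strand), had 103.4, 102.9 and 101.2 CPM against 127.3, 131.4 and 123.5 CPM. All overexpressing libraries lay below all controls, with a log2 fold change of -0.31 (SE 0.04, adjusted p 7.03e-05). RRM1, the catalytic subunit of the same enzyme, had 139.2, 139.7 and 139.1 CPM against 139.8, 133 and 131.3 CPM. These groups overlapped, with a log2 fold change of 0.05 (95% interval -0.04 to 0.13). RRM1 passed as higher with scaling by library size only (0.12, adjusted p 0.0334) and on FPKM. The count ratio of RRM2 to RRM1 was 0.736 in overexpressing libraries and 0.946 in controls. On the log2 scale it differed by -0.36 (95% interval -0.46 to -0.27) without overlap (exact permutation p 0.1).

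TYMS and TK1 make thymidine monophosphate from deoxyuridine monophosphate and by salvage of thymidine. TYMS (ENSG00000176890, chromosome 18, 657653 to 673578, plus strand) had 34.7, 36.6 and 34.8 CPM against 48.2, 43.4 and 44.7 CPM. Its log2 fold change was -0.37 (SE 0.06, adjusted p 0.000336), so it fell by 22.4%, and the groups did not overlap. ENOSF1, which overlaps TYMS on the opposite strand, had 61.0 ± 1.84 against 88.8 ± 3.42 CPM and a log2 fold change of -0.54. The sources used here do not give whether counting used strand, so reads of these genes cannot be told apart. TK1 had 83.0, 80.2 and 81.5 CPM against 94.9, 90.2 and 88.3 CPM. It fell by 0.16 on the log2 scale (SE 0.04, adjusted p 0.0123). That call was lost without control replicate 1 (-0.13, adjusted p 0.0697), with scaling by library size only (-0.09, adjusted p 0.108) and on FPKM. The ratio of TK1 to TYMS was higher in overexpressing cells, by 0.20 on the log2 scale (95% interval 0.07 to 0.33, exact permutation p 0.1).

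The E-type cyclins, partners of CDK2 at the G1/S transition, moved apart. CCNE1 (ENSG00000105173, chromosome 19, 29811991 to 29824312, plus strand) had 10.5, 11.6 and 10.8 CPM against 6.66, 8.12 and 7.54 CPM, a log2 fold change of 0.56 (SE 0.10, adjusted p 0.00109). CCNE2 (ENSG00000175305, chromosome 8, 94879770 to 94896678, minus strand) had 6.45, 6.38 and 5.75 CPM against 9.17, 7.65 and 8.48 CPM, a change of -0.45 (SE 0.11, adjusted p 0.00828). Neither gene had overlapping groups. On log2(FPKM + 1) CCNE2 had -0.28 and did not pass (adjusted p 0.0501). INTS8, with 64.7 ± 1.60 CPM in controls, overlaps CCNE2 by 1977 bases on the opposite strand. It had a log2 fold change of -0.03 (adjusted p 0.644). NDUFAF6, which overlaps CCNE2 by 912 bases on the opposite strand, had 0.29 (adjusted p 0.075). As for TYMS, reads of these genes cannot be told apart. The ratio of CCNE1 to CCNE2 counts was 1.77 in overexpressing libraries and 0.881 in controls. The log2 ratio differed by 1.01 (95% interval 0.54 to 1.48), the largest difference of the 12 pairs compared (exact permutation p 0.1, 0.15 adjusted).

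**Figure D4:**
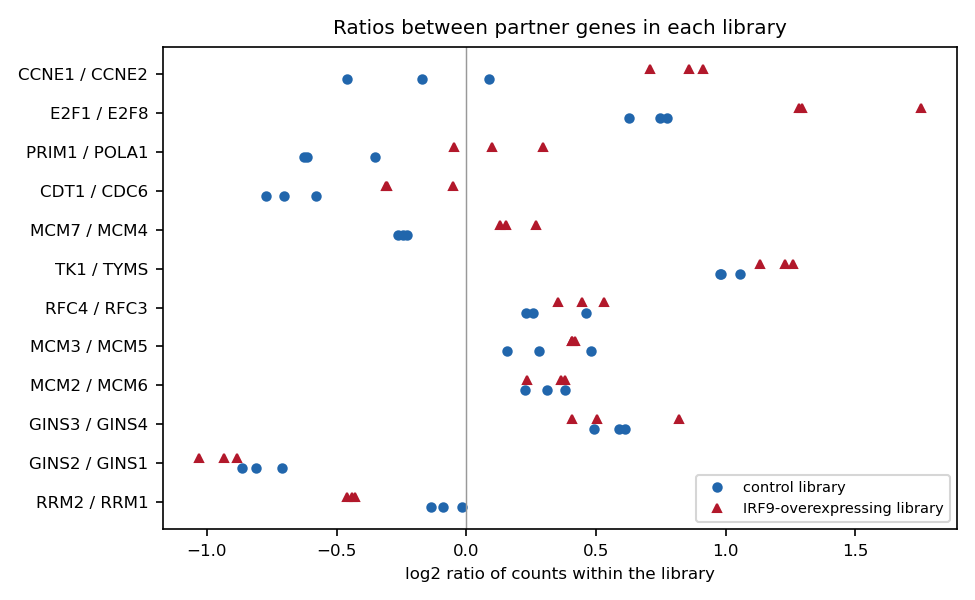
Points give the log2 ratio of the counts of 2 partner genes in each library, circles for controls and triangles for overexpressing libraries, for 12 pairs. The groups do not overlap for 8 pairs, among them CCNE1 to CCNE2 and RRM2 to RRM1, and overlap for 4. For GINS2 to GINS1, also without overlap, the 95% interval of the difference (-0.33 to 0.02) includes 0. Of single genes tested, 48.6% show no overlap, and the share over other gene pairs was not computed.

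E2F1, an activator of G1/S transcription (ENSG00000101412, chromosome 20, 33675477 to 33686385, minus strand), had 23.2, 22.8 and 24.5 CPM against 16.9, 15.9 and 15.9 CPM. It rose by 0.53 on the log2 scale (SE 0.07, adjusted p 7.25e-05), and every overexpressing library exceeded every control. E2F8, a repressor of the same family, had 9.46, 9.38 and 7.28 CPM against 10.95, 9.47 and 9.28 CPM. These groups overlapped, with a log2 fold change of -0.19 (95% interval -0.46 to 0.07). The log2 ratio of E2F1 to E2F8 differed by 0.73 (95% interval 0.28 to 1.17, exact permutation p 0.1). UHRF1, which recruits the maintenance DNA methyltransferase to newly copied DNA, had -0.07 (95% interval -0.18 to 0.05).

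A further 64 genes of the same processes, listed by their role, held 30 higher and 4 lower genes. Of all genes tested, 19.2% were higher and 18.2% lower. The list was chosen with earlier results of these data known. Their median log2 fold change was 0.15. Among other licensing genes 6 of 11 rose and 0 fell, and among other fork genes 13 of 28 rose and 1 fell. Unlike the 4 listed nucleotide supply genes, the other genes of that role held 5 higher and 1 lower of 9. SLC29A1, a nucleoside transporter of the plasma membrane, had 54.6 ± 1.33 against 23.9 ± 0.224 CPM, a log2 fold change of 1.19 (SE 0.05). TIPIN, of the fork protection complex, rose by 0.47, whereas TICRR, which helps to load CDC45, had a log2 fold change of -0.46.

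Among 16 other E2F and RB genes 6 rose and 2 fell, where 19.2% of all genes tested were higher and 18.2% lower. E2F5, a factor that pairs with the RB family, had 15.1 ± 1.01 against 8.27 ± 0.569 CPM (0.87, SE 0.09), and E2F7, the closest relative of E2F8, had 44.0 ± 2.67 against 28.3 ± 1.96 CPM (0.64, SE 0.07). E2F2, an activator, had 3.85 ± 0.352 against 5.26 ± 0.19 CPM (-0.44, SE 0.13), and RB1 had 108.5 ± 0.918 against 129.4 ± 1.57 CPM (-0.25, SE 0.04). E2F1 and E2F2 thus passed in opposite directions.

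**Figure D5:**
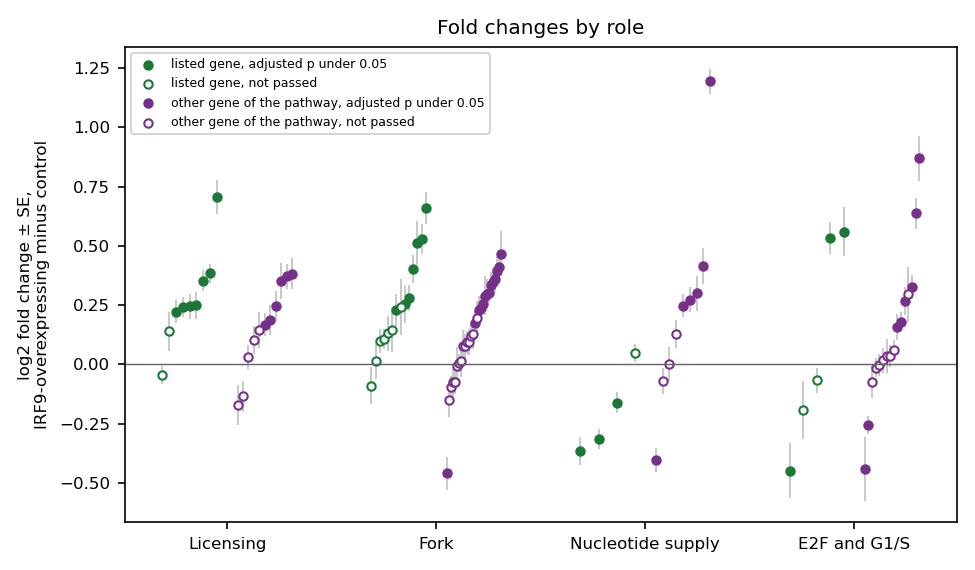
Log2 fold changes with SE bars by role, for the 32 listed genes (left of each pair) and 64 other pathway genes (right), with filled points for adjusted p under 0.05. Listed nucleotide supply genes lie between -0.37 and 0.05, while SLC29A1 reaches 1.19 among the other genes of that role.

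Genes of G2 and mitosis were compared as another phase of the cycle. Where 19.2% of all genes tested were higher and 18.2% lower, 2 of 25 such genes rose and 7 fell. The share changed in either direction was near the 37.4% of all genes tested. The median log2 fold change of these 25 genes was -0.02. KIF20A, a mitotic kinesin, had -0.45, MKI67, a proliferation marker, -0.36, CENPE -0.36 and CENPF -0.34, the last 2 being kinetochore proteins. CDK1, the mitotic kinase, and AURKB each rose by 0.21. With scaling by library size only, 7 of these genes passed as higher.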

How the data were processed

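The deposited files hold raw counts for each gene, as whole numbers, and, in a second table with gene names and positions, normalised values taken here as FPKM from the values, since the file headers name no unit. Per the submitters' processing notes, HISAT2, StringTie, Trimmomatic, CASAVA 1.8, FastQC and edgeR were used with GRCh38, without stated roles. The sources used here do not give the annotation release. Coordinates of genes are those of the deposited table.

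Libraries were grouped by title. The test of counts was that of edgeR 4.0.16 (R 4.3.3), with filterByExpr (minimum count 10, minimum total 15), TMM scaling and a quasi-likelihood model of group with the current quasi-dispersion estimate. Benjamini-Hochberg adjustment ran over all 19034 genes tested, with a threshold of 0.05. A positive log2 fold change means a higher level in IRF9-overexpressing cells, SEs come from the test statistic, and 95% intervals are unadjusted. CPM use TMM-scaled library sizes. No replicate was a copy of another, since chi-square per degree of freedom between replicates was 8.75 to 22.2. Counts of the 32 genes ranged from 453 to 17592 per library. Methods were tested on simulated data.

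The members and lists were chosen with earlier results of these data known. All listed genes are named. Of the comparison lists, the 4 highest and 4 lowest changed genes are named, if the higher group averaged 5 CPM or more. A gene that this rule picks is not reported here. Of other genes that overlap a member, only some are described with values. FADS2, which overlaps FEN1, and AL161891.1, which overlaps RFC3, lie on the same strand as the member and did not pass. Ratios of 12 pairs were compared by exact permutation. Alternatives used DESeq2 1.42.0, limma 3.58.1, other scalings and filters, FPKM, a replicate block and leaving out libraries.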

Additional observations from a re-analysis of the deposited data

How the results depend on the processing

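Over 20 alternatives the number of listed genes that rose, 16, lay between 14 and 19, and the number that fell, 4, between 2 and 4. Of 640 values for the 32 genes, 606 stayed on the same side of the threshold, 18 no longer passed and 16 newly passed, in 8 genes, and none changed sign while called. Leaving out 1 library gave 14 to 16 higher and 3 to 4 lower listed genes, 5 to 7 higher fork genes, 7 higher licensing genes, 2 to 3 lower nucleotide supply genes, 25 to 30 higher and 3 to 4 lower pathway genes and 1 to 2 higher and 6 to 8 lower G2/M genes. Over all genes it gave 2981 to 3539 higher and 2803 to 3373 lower genes, and IRF9 lay between 3.08 and 3.74. With scaling by library size only, 64.5% of changed genes were higher against 51.2% in the main model, the median of all genes was 0.07, 1 nucleotide supply gene (RRM1) rose and 7 G2/M genes were higher. On log2(FPKM + 1), log2(FPKM + 0.1) and log2(FPKM + 1) without a filter, 2090, 2074 and 1591 genes fell, with 2 listed genes lower each time, 1 nucleotide supply gene higher, 0 E2F and G1/S genes lower, and 3, 3 and 2 G2/M genes lower. At an adjusted p under 0.01, 1 G2/M gene was higher. The causes were not tested. The older edgeR quasi-dispersion estimate, added after seeing the data, gave 16 and 4 listed genes. The replicate number as a block gave 17 and 4 listed genes, PCNA being the added one, and 3799 higher and 3659 lower genes overall. Deviations of same-numbered libraries correlated at 0.163, 0.083 and 0.0034, and not every library correlated best with its own number, so the numbers were not taken as a pairing. The widest 95% intervals among listed genes that did not pass ran from -0.46 to 0.07 for E2F8 and from -0.02 to 0.50 for GINS4.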

Other observations

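Some listed genes share their locus with another gene. AP4M1, which overlaps MCM7 on the opposite strand, had 10.4, 9.38 and 10.1 CPM in overexpressing libraries and 11.7, 12.8 and 13.4 CPM in controls, a log2 fold change of -0.33 (adjusted p 0.0134), while MCM7 rose. TYMSOS, a long non-coding RNA that overlaps TYMS on the opposite strand, had 3.17, 2.10 and 2.70 CPM against 1.34, 2.09 and 1.95 CPM. Its log2 fold change of 0.59 did not pass (adjusted p 0.0654). Both genes were named after their values were seen.

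The chromosomes that carry the lower listed genes had medians near 0, and so did those of CDT1, PRIM1 and CCNE1, which rose. Medians of the log2 fold change were taken over genes with a mean of 5 CPM or more. They were 0.002 on chromosome 2 (RRM2), 0.02 on chromosome 17 (TK1), 0.05 on chromosome 18 (TYMS) and -0.03 on chromosome 8 (CCNE2). For the higher genes they were 0.006 on chromosome 16 (CDT1), -0.01 on chromosome 12 (PRIM1) and 0.003 on chromosome 19 (CCNE1). A median over a whole chromosome does not describe the region around a single gene, which was not tested. Chromosome 8 also carries MCM4 and GINS4, which did not pass. The median of chromosome 21, which holds none of the 32 genes, was -0.19.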
